A study of Mus musculus with 6 samples.

Results

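The 10 genes described here carry corticosteroid and renin-angiotensin signals: the glucocorticoid receptor gene Nr3c1 and the mineralocorticoid receptor gene Nr3c2, the steroid enzyme gene Hsd11b1, the receptor cochaperone gene Fkbp5, the hormone-responsive genes Sgk1 and Tsc22d3, the ubiquitin ligase gene Nedd4l, and the angiotensin genes Agt, Ace and Agtr1a. They were chosen by symbol, for their bearing on maternal sodium restriction, and all 10 were found among the 26789 genes of the table of normalized counts. Of these, 9 were tested and none was called between diets, and the groups overlapped in all 10. The genes themselves fell into different patterns across the 6 libraries: Nr3c1 was highest where microglial markers were highest, Agt and Ace were lowest in the library with the fewest astrocyte and vascular markers, and Nedd4l followed the oligodendrocyte markers.

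The libraries were made at P15 from microglia, the phagocytes that reside in brain tissue, of the rostral nucleus of the solitary tract (NST), the first brain relay for taste. Dams received either a control diet throughout (controls) or a low sodium diet from E3 to E12 (E3–E12 diet mice). Each library pooled the NST of 6 littermates from 1 litter, and there were 3 litters per group, so the litter, whose dam received the diet, is the unit of replication. By the study's methods the cells were sorted with magnetic beads against CD11b and the RNA was amplified, whereas the description deposited with the data names laser microdissection, so the way the cells were isolated is uncertain. Both sexes were used, and the labels give neither the sex nor the age of the pups in a library.

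Corticosteroids act through receptors that are transcription factors. Bound by chaperones in the cytoplasm, the glucocorticoid receptor is released by hormone, enters the nucleus and binds glucocorticoid response elements, of which the classic form is a pair of inverted hexamers separated by a short spacer. The mineralocorticoid receptor binds the same elements and is known in the kidney as the receptor through which aldosterone, the hormone that rises when sodium is scarce, holds back sodium. Upstream of aldosterone, renin cuts angiotensinogen to angiotensin I, angiotensin-converting enzyme makes angiotensin II from it, and the AT1 receptor responds. In the brain, angiotensinogen is made mainly by astrocytes, converting enzyme is found on vessels and choroid plexus, and microglia express the glucocorticoid receptor strongly.

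Among the promoters of the 10 genes the classic response element was found in Sgk1. RefSeq windows on GRCm38.p6, from 250 bases before to 50 bases after a transcription start, were held for 7 of the 10 genes (15 windows, 6 of them for Sgk1). Both strands were searched for the full element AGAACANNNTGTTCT, for its looser core GNACANNNTGTNC, and for the single hexamer TGTTCT, which also occurs inside the full one. The full element was in 3 of 32851 windows (0.00913%), 1 of which was a Sgk1 window, and the core was in 156 windows (0.475%). The single hexamer was in 19.0% of all windows and in 4 of the 15 windows of these genes, which belonged to Sgk1 and Tsc22d3. In the wider list of glucocorticoid targets described below, it was in 6 of 36 windows (16.7%), so it did not set that list apart. Because both are established glucocorticoid targets, the 250 bases before the start are shown for each, 5′ to 3′ on the strand of the gene, with the full element of Sgk1 (chr10:21993701-21993715, 189 to 175 bases before the start) and the single hexamer of Tsc22d3 (chrX:140600702-140600707, 185 to 180 bases before the start) in capitals. The Sgk1 stretch is chr10:21993640-21993889 on the plus strand, and the Tsc22d3 stretch is chrX:140600523-140600772 on the minus strand.
Sgk1: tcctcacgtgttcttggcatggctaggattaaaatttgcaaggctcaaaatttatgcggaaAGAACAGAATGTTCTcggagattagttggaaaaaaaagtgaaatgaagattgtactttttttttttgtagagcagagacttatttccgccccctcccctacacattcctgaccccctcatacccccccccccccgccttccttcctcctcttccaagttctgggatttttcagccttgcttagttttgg
Tsc22d3: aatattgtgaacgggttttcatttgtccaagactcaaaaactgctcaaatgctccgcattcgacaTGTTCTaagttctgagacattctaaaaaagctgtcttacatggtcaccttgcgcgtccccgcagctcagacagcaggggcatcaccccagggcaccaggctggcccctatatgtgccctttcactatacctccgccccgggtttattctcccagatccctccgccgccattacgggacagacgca
A match to these letters describes the sequence and does not show that a receptor bound there. No element was found in the windows of Fkbp5 and Agt, which says only that these letters are not in those windows.

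The libraries differed in composition. The values are normalized counts, which the authors had already scaled between libraries; they summed to between 9407141 and 17204618 per library, and how many reads stand behind a value is unknown. Control replicate 2 had the highest total and the most genes listed at 0 (10640, against 3459 to 7135 in the others). All 14 microglial markers, such as Cx3cr1 and P2ry12, were detected in every library, with a summed level of 107919 to 521413 normalized counts in controls and 104601 to 331535 in E3–E12 diet mice. Markers of other cells were also present: 12 astrocyte markers summed to 2666 to 11049 in controls and 5629.6 to 13856 in E3–E12 diet mice, 12 endothelial markers to 6139.8 to 22595 and 18101 to 32487, and 10 choroid plexus markers to 601 to 19619 and 84.3 to 42782. In control replicate 2 the astrocyte markers Gfap, Gjb6 and Aldh1l1 were at 0. In such bulk samples, fewer cells of a type and less RNA per cell cannot be told apart.

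No gene of the 10 was called between diets. A difference is given as a log2 fold change on the scale log2(normalized count + 1), E3–E12 diet minus control, tested with limma over 18007 genes, those averaging at least 10 normalized counts over the libraries, two-sided, with Benjamini-Hochberg adjustment and a threshold of 0.1. Of the 10 genes, 9 passed the filter (Agtr1a did not), 0 were called (0.00% of all genes tested), and 0 had an unadjusted p under 0.05 (1.82% of all genes tested). The paper's own DESeq2 comparison, at the same adjusted threshold, listed genes in both directions. None of the 10 was among those listed. The 9 genes shared an adjusted p of 0.999, and their unadjusted p-values from limma lay between 0.154 and 0.887. The groups overlapped in all 10 genes, whereas they did not overlap in 5.90% of all genes tested. The log2 fold changes of the 9 genes ran from -0.63 (Tsc22d3) to 2.72 (Agt) with a median of 0.26, against 0.09 over all genes tested, and 7 of the 9 had a higher mean log2 level in E3–E12 diet mice. Without control replicate 2 these medians were 0.14 and -0.00, and 6 of the 9 were higher. Single genes could be compared only roughly, as the median standard error over all genes tested was 0.85. In exact permutation tests, also two-sided, 3 litters against 3 cannot give a p below 0.1.

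**Figure D1:**
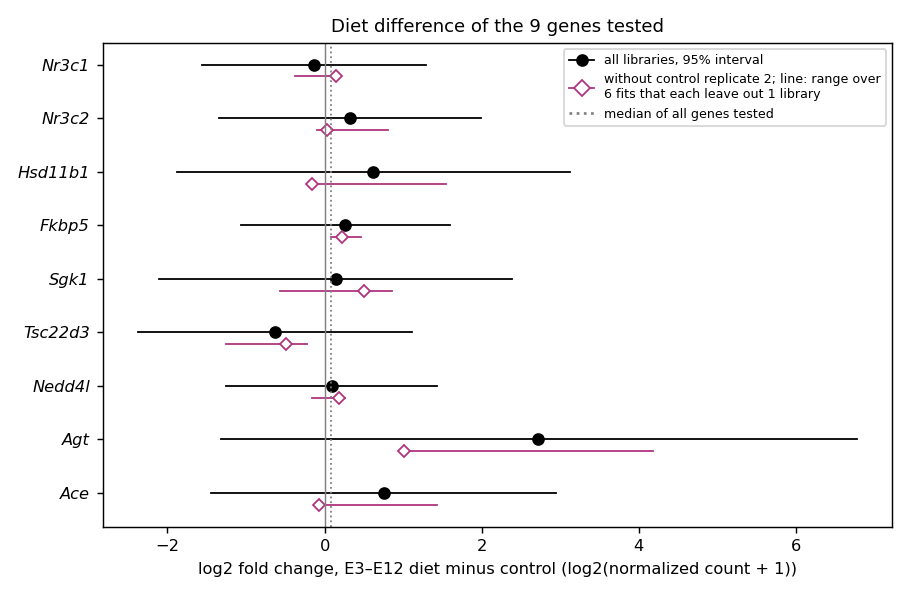
Log2 fold change between diets of the 9 genes tested (x axis, E3–E12 diet minus control, on the log2(normalized count + 1) scale). Black points are estimates from all 6 libraries with 95% intervals from limma, diamonds are estimates without control replicate 2, pink lines span the 6 fits that each leave out 1 library, and the dotted line is the median of all genes tested (0.09). Every interval includes 0, and the estimate for Agt goes from 2.72 to 1.01 without control replicate 2.

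The genes covered a wide range of levels. Levels between genes are compared per kilobase of annotated exon, as the mean of the 6 libraries. Sgk1 was the highest at 960.0 normalized counts per kilobase, followed by Nr3c1 (233), Tsc22d3 (176), Ace (110), Nedd4l (61.4), Fkbp5 (58.3), Agt (34.7), Nr3c2 (28.2), Hsd11b1 (2.77) and Agtr1a (1.92). Sgk1 lay above Nr3c1 in 6 of 6 libraries, and Nr3c2 lay above Hsd11b1 in 6 of 6. The other neighbours in this order were not separated in every library: Nr3c1 was above Tsc22d3 and Hsd11b1 above Agtr1a in 5 of 6, Tsc22d3 was above Ace, Ace above Nedd4l and Fkbp5 above Agt in 4 of 6, and Nedd4l above Fkbp5 and Agt above Nr3c2 in 3 of 6. Where 3 values of a group are given below, they follow the order of replicates 1, 2 and 3, and the diet litters are those of the E3–E12 diet. Gene coordinates are those of GRCm38. No library was high for all genes. E3–E12 diet replicate 2 held the highest value of 4 of the 10 genes, control replicate 2 the lowest of 4, and E3–E12 diet replicate 1 the lowest of 3.

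**Figure D2:**
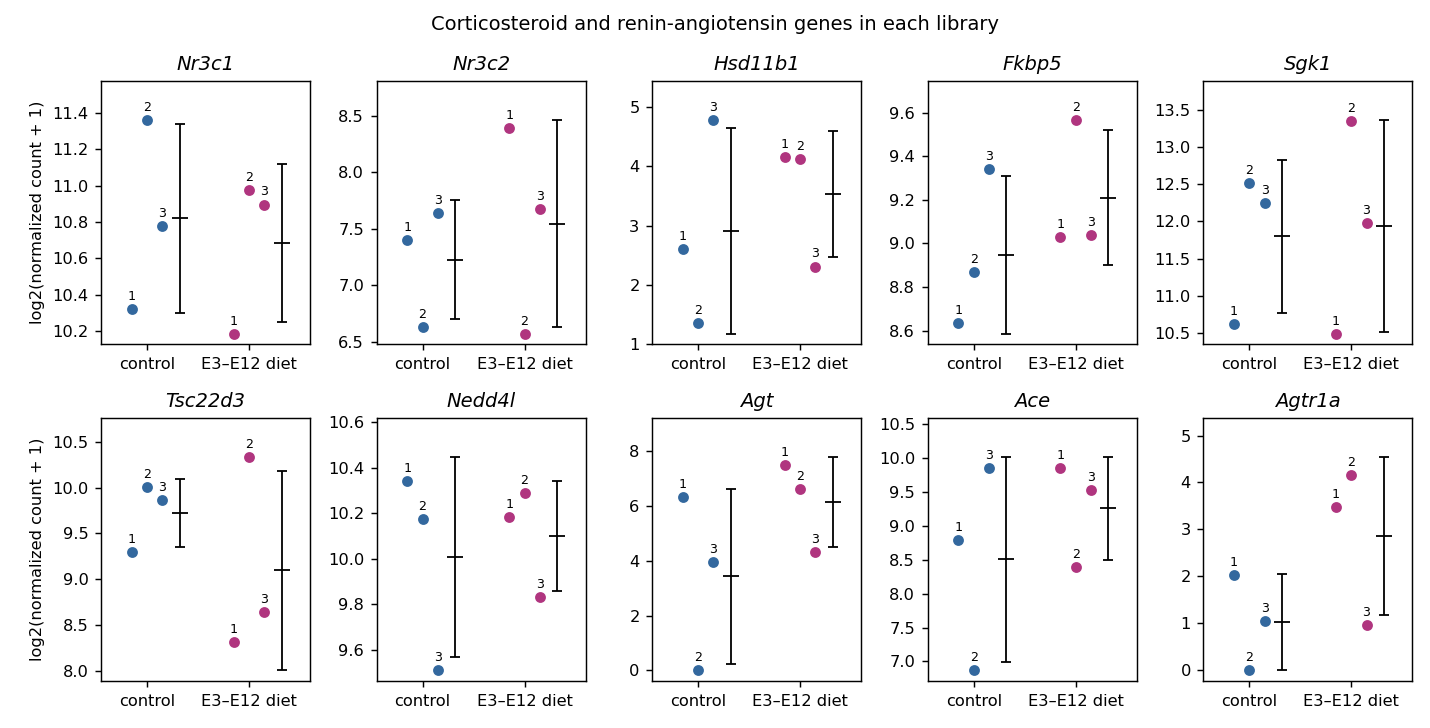
Level of each of the 10 genes in each library, as log2(normalized count + 1) on a y axis of its own range, with controls in blue, E3–E12 diet mice in pink, and replicate numbers above the points. Black bars are the group mean and SD (n = 3 libraries each). The groups overlap in every gene, and control replicate 2 is the lowest library for Hsd11b1, Agt, Ace and Agtr1a.

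Both receptor genes were detected in every library and neither was called between diets. Nr3c1 (chr18:39410545-39519421, minus strand) had 1279, 2631 and 1752 normalized counts in the controls against 1164, 2011 and 1905 in the diet litters. The mean was 1887 ± 686 in controls and 1693 ± 462 in E3–E12 diet mice (SD, n = 3 each), for a log2 fold change of -0.13 (SE 0.60, 95% interval -1.56 to 1.29, exact permutation p = 0.8). Its lowest values were in replicate 1 of both groups, and the groups overlapped. The direction was not stable, being 0.14 when control replicate 2 was left out and 0.12 when E3–E12 diet replicate 1 was. The same 2 libraries that were low for Nr3c1 had the lowest summed microglial markers, at 107919 and 104601 normalized counts, and the highest summed astrocyte markers, at 11049 and 13856; the part of composition in the Nr3c1 values was not tested.

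Nr3c2 (chr8:76899442-77245012, plus strand) was the lower of the receptor genes per kilobase. It had 168, 98.2 and 199 normalized counts in the controls against 336, 94.1 and 203 in the diet litters, so that replicate 2 was lowest in each group and 1 diet library stood highest. The log2 fold change was 0.32 ± 0.70 (SE; 95% interval -1.35 to 1.99, exact permutation p = 0.7), and it was -0.10 without E3–E12 diet replicate 1. That library also had the most choroid plexus signal of the 6, with a summed marker level of 42782, and E3–E12 diet replicate 2, the lowest for Nr3c2, had the least at 84.3. Per kilobase, Nr3c1 exceeded Nr3c2 by a factor of 6.42, 22.6 and 7.43 in the controls and of 2.92, 18 and 7.92 in the diet litters. The glucocorticoid receptor gene thus dominated in all libraries, and the log2 of this ratio differed between diets by -0.46 ± 0.95 (SE; exact permutation p = 0.7). The antisense gene Gm10649 covers 3.82% of the exon bases of Nr3c2, and reads of the 2 genes cannot be told apart without strand.

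The genes that set how much hormone reaches the receptors were low or variable. Hsd11b1 (chr1:193221634-193264075, minus strand) encodes the enzyme that regenerates active corticosterone inside cells. It had 5.07, 1.56 and 26.6 normalized counts in the controls against 16.9, 16.5 and 3.96 in the diet litters, for a log2 fold change of 0.62 (SE 1.05, exact permutation p = 0.7) that was -0.16 without control replicate 2 and 0.21 with a pseudocount of 10 in place of 1. The highest and the lowest library were both controls, and they differed 17.1-fold. H6pd, which supplies the cofactor for this reaction, had group means of 726 ± 289 normalized counts in controls and 675 ± 320 in E3–E12 diet mice (SD, n = 3 each). Hsd11b2, the opposing enzyme that inactivates corticosterone and protects the mineralocorticoid receptor in the kidney, had 296, 1.98 and 58.4 normalized counts in the controls against 111, 269 and 374 in the diet litters. Its log2 fold change of 2.58 (SE 1.65, exact permutation p = 0.3) was the largest of its list and was 0.76 without control replicate 2, which held the lowest value. The Hsd11b2 estimate was 4.08 without control replicate 1.

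Fkbp5 (chr17:28399094-28517527, minus strand), a cochaperone that lowers the hormone affinity of the glucocorticoid receptor and is itself induced by it, varied little. Its values were 396, 466 and 648 normalized counts in the controls against 521, 757 and 524 in the diet litters, and the highest was 1.91 times the lowest. The means of 503 ± 130 in controls and 601 ± 136 in E3–E12 diet mice (SD, n = 3 each) gave a log2 fold change of 0.26 (SE 0.56, 95% interval -1.07 to 1.59, exact permutation p = 0.4). The estimate kept its sign whichever library was left out, between 0.08 and 0.46. Fkbp4, a cochaperone that assists transport of the receptor to the nucleus, had 532 ± 378 normalized counts in controls and 389 ± 90.8 in E3–E12 diet mice, and its log2 fold change of -0.22 was 0.33 without control replicate 2 and -0.74 without control replicate 1.

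Of the 18 genes listed as receptor chaperones and steroid metabolism, 17 were tested and 0 passed in either direction, with 0 at an unadjusted p under 0.05 in limma. Their median log2 fold change was 0.24 (0.11 when control replicate 2 was left out, -0.03 when E3–E12 diet replicate 2 was, 0.35 when E3–E12 diet replicate 1 was), against 0.09 over all genes tested. Besides Hsd11b2, the largest difference was in Abcb1a, a transporter that exports corticosteroids at the blood-brain barrier, at 2.17, which was 0.71 without control replicate 2 and 2.92 without control replicate 1. The paper's own DESeq2 comparison listed Abcb1a as upregulated in E3–E12 diet mice, whereas limma did not call it here. Abcb1a had 4692 normalized counts in E3–E12 diet replicate 3, 40.3 in control replicate 2 and between 660 and 900 in the other 4 libraries. The endothelial markers were also highest and lowest in those libraries, at 32487 and 6139.8. As a share of the library total they were highest in control replicate 1, at 0.232% against 0.222% in E3–E12 diet replicate 3. Abcb1a shares 22.5% of the 50-base windows of its transcripts with other genes, mostly its neighbour Abcb1b.

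Sgk1 (chr10:21882184-21999903, plus strand), whose promoter is shown above, encodes a kinase induced by both receptors and by cell stress. It was the most abundant of the genes per kilobase. It had 1575, 5890.0 and 4880.2 normalized counts in the controls against 1437, 10432 and 4037 in the diet litters. Replicate 1 of each group lay far below the other libraries, and the highest value was 7.26 times the lowest. The log2 fold change was 0.14 ± 0.94 (SE), with a 95% interval of -2.11 to 2.39 (exact permutation p = 1.0). Its direction turned to -0.45 when control replicate 1 was left out and to -0.57 when E3–E12 diet replicate 2 was. The dissociation response is a list of 15 immediate-early and stress genes that appear when cells are prepared. Its summed level was also lowest in the replicates numbered 1, at 116162 and 96402 normalized counts. It lay between 170539.9 and 369322 in the other 4 libraries. As a share of the library total, those replicates were at 1.2% (control) and 1.02% (E3–E12 diet), but E3–E12 diet replicate 3 was similar at 1.16%. The part of this response in the Sgk1 values was not tested.

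Tsc22d3 (chrX:140539528-140600659, minus strand), which encodes the glucocorticoid-induced leucine zipper protein, was the gene with the most negative estimate. It had 628, 1025 and 933 normalized counts in the controls against 317, 1293 and 398 in the diet litters. Of the E3–E12 diet libraries, 2 lay below all controls and 1 above all of them. The log2 fold change was -0.63 ± 0.73 (SE), with a 95% interval of -2.37 to 1.11 (exact permutation p = 0.4), between -1.25 without E3–E12 diet replicate 2 and -0.23 without E3–E12 diet replicate 1. Sgk1 and Tsc22d3 had their highest value in the same library and their lowest in the same library, E3–E12 diet replicates 2 and 1. Per kilobase, Tsc22d3 was at 0.451, 0.197 and 0.216 of the level of Sgk1 in the controls and at 0.249, 0.140 and 0.111 in the diet litters. The log2 of this ratio differed by -0.77 ± 0.51 (SE) between diets (exact permutation p = 0.3).

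The wider list of glucocorticoid targets held 26 genes, of which 25 were tested, 0 passed and 1 had an unadjusted p under 0.05. The median log2 fold change was 0.12, against 0.09 over all genes tested, with 14 genes higher and 11 lower in mean. It was -0.26 without control replicate 1, 0.27 without control replicate 2, 0.36 without control replicate 3 and, with E3–E12 diet replicate 2 left out, -0.07, so the list had no stable direction. The groups did not overlap in 4 of the 25 genes (16.0%, against 5.90% of all genes tested), of which Zbtb16, Nfkbia and Cdkn1a were higher and Anxa1 was lower in E3–E12 diet mice. The list was chosen with earlier results of these data known, so the 2 shares cannot be compared as a test.

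These 4 genes are named because their groups did not overlap, and each had an adjusted p of 0.999 in limma. Nfkbia, which encodes the inhibitor of NF-kappaB and is also induced by NF-kappaB itself, had 2392, 1519 and 2284 normalized counts in the controls against 3734, 4548 and 5034 in the diet litters (log2 fold change 1.12, SE 0.55). Zbtb16, a transcription factor gene strongly induced by glucocorticoids, had 72.7, 27.9 and 100 in the controls against 161, 115 and 172 in the diet litters (log2 fold change 1.30, SE 0.68, 0.78 without control replicate 2 and 1.68 without control replicate 3). Every E3–E12 diet library was above every control for both. The cell cycle inhibitor gene Cdkn1a had 1124, 966 and 904 normalized counts in the controls against 1419.9, 3405 and 1878 in the diet litters (log2 fold change 1.07, SE 0.59), and other genes share 8.49% of its 50-base windows. Anxa1, which encodes the anti-inflammatory protein annexin A1, was lower in E3–E12 diet mice, with 52.8, 80.5 and 63.4 in the controls against 15.1, 18.4 and 37.6 in the diet litters (-1.52, SE 0.61, unadjusted p = 0.0432 in limma). Nfkbia is also on the dissociation list, in which the groups did not overlap for Nfkbia, higher in E3–E12 diet mice, and for Zfp36, lower in them. The paper's comparison listed Nfkbia as upregulated in E3–E12 diet mice and Zfp36 as downregulated, whereas limma called neither here. The summed level of that list was 116162 to 369322 normalized counts in controls and 96402 to 227226 in E3–E12 diet mice, and its part in the Nfkbia values was not tested.

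Other known targets overlapped between groups. Per1, a clock gene with fast glucocorticoid induction, had 5324 ± 775 normalized counts in controls and 7755 ± 3921 in E3–E12 diet mice (SD, n = 3 each), and its log2 fold change of 0.43 (SE 0.61) was 0.05 without E3–E12 diet replicate 3, where it was at 12149, and 0.75 when E3–E12 diet replicate 1 was left out. Dusp1, a phosphatase gene that is also an immediate-early gene, was at 53819.9 ± 42069 and 37707 ± 17783 normalized counts, and its log2 fold change of -0.33 was 0.28 without control replicate 2 and -0.89 without control replicate 1. Klf9 was at 51.7 in control replicate 2 and between 422 and 1063 elsewhere, and its log2 fold change of 1.07 was -0.21 without that library and 1.96 without control replicate 1. Ddit4, induced by stress as well as by glucocorticoids, was at 1808 normalized counts in E3–E12 diet replicate 2, the library highest for Sgk1 and Tsc22d3, and between 230.0 and 850.0 elsewhere. The largest estimates of the list rested on zeros: Il1r2 was listed at 0 in all controls and at 63.5, 1.13 and 0 in E3–E12 diet replicates 1, 2 and 3, and Mt2, at 0 in control replicate 2, has 45.9% of its 50-base windows in common with other genes.

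**Figure D3:**
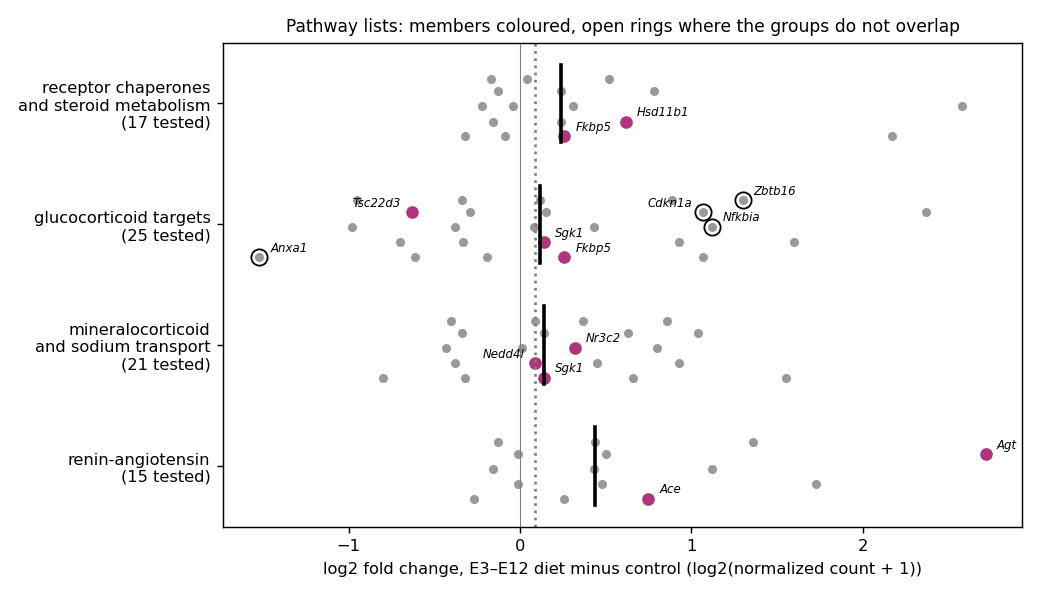
Log2 fold change (x axis, E3–E12 diet minus control, on the log2(normalized count + 1) scale) of each tested gene in 4 pathway lists. The genes described here are coloured and named, open rings mark genes whose groups do not overlap, black bars are list medians and the dotted line is the median of all genes tested (0.09). The medians run from 0.12 to 0.44, and the rings are in the glucocorticoid target list, 3 to the right and 1 to the left.

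Nedd4l (chr18:64887705-65217828, plus strand) encodes the ligase that removes the epithelial sodium channel from the kidney cell surface and is held back by Sgk1. It was the steadiest of the 10 genes, with 1297, 1155 and 728 normalized counts in the controls against 1162, 1249.9 and 909 in the diet litters. The highest value was 1.78 times the lowest, and replicate 3 was the lowest of each group. The log2 fold change was 0.09 ± 0.56 (SE), with a 95% interval of -1.25 to 1.43 (exact permutation p = 0.8), and it was -0.16 when control replicate 3 was left out and -0.00 when E3–E12 diet replicate 2 was. The oligodendrocyte markers were also lowest in the replicates numbered 3, summing to 5314 and 6145 normalized counts against 17836 to 45346 in the other 4 libraries. The antisense gene A330084C13Rik covers 1.57% of its exon bases.

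Of the 23 genes listed for mineralocorticoid action and sodium transport, 21 were tested, 0 passed in either direction and 0 had an unadjusted p under 0.05 in limma. The median log2 fold change was 0.14, with 0.01 without control replicate 2 and 0.37 without control replicate 3. The sodium channel subunits were low: Scnn1b and Scnn1g were below the filter, and Scnn1a had 5.21, 8.04 and 24.5 normalized counts in the controls against 94.1, 0 and 19.0 in the diet litters. The highest Scnn1a value was in the library with the most choroid plexus markers. The largest estimates of the list, 1.55 for the kinase gene Wnk4 and 1.04 for the ligase gene Nedd4, became -0.58 and -0.32 without control replicate 2. Wnk4 was listed at 0 there, and Nedd4 was at 152 normalized counts there and between 1292 and 3872 elsewhere. Estimates for Wnk4 and Nedd4 were 2.79 and 2.01 without control replicate 1.

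Agt (chr8:124556534-124569706, minus strand), which encodes angiotensinogen, had 79.7, 0 and 14.6 normalized counts in the controls against 182, 98.7 and 18.9 in the diet litters. E3–E12 diet replicates 1 and 2 were above all controls, but the third lay within the control range. The log2 fold change of 2.72 was the largest of the 10 genes, with a SE of 1.69 and a 95% interval of -1.32 to 6.77 (exact permutation p = 0.2). It was 1.01 without control replicate 2, where Agt was listed at 0, and 4.18 without control replicate 1. With a pseudocount of 10 in place of 1 it was 1.59. The astrocyte markers were lowest in control replicate 2 (2666 normalized counts) and highest in E3–E12 diet replicate 1 (13856), as Agt was. Between these the order differed. E3–E12 diet replicate 2 had more Agt than control replicate 3 (98.7 against 14.6) but a lower astrocyte sum (5653 against 6413). The part of astrocyte RNA in the difference was not tested.

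Ace (chr11:105967945-105989964, plus strand), which encodes angiotensin-converting enzyme, had 444, 116 and 922 normalized counts in the controls against 920.0, 335 and 739 in the diet litters. Replicate 2 was lowest in each group, and the highest libraries of both groups were almost equal. The log2 fold change was 0.75 ± 0.92 (SE), with a 95% interval of -1.44 to 2.95 (exact permutation p = 0.7), and it was -0.07 without control replicate 2. The endothelial markers and the mural and fibroblast markers were lowest in control replicate 2 as well, at 6139.8 and 2733 normalized counts, and E3–E12 diet replicate 2 was the lowest of its group for both, at 18101 and 7160.2. At the upper end the endothelial markers peaked in E3–E12 diet replicate 3 (32487), where Ace was at 739. The choroid plexus markers were highest in E3–E12 diet replicate 1 (42782) and control replicate 3 (19619), which were also highest for Ace. The part of these cells in the Ace values was not tested. The antisense gene Gm11651 covers 5.58% of the exon bases of Ace.

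The receptor genes for angiotensin were close to the limit of what the table shows. Agtr1a (chr13:30336441-30382867, plus strand), the main AT1 receptor gene of the mouse brain, had 3.09, 0 and 1.08 normalized counts in the controls against 10.2, 16.8 and 0.945 in the diet litters. E3–E12 diet replicates 1 and 2 were above all controls and the third was not, and with a mean below the filter the gene was not tested with limma (exact permutation p = 0.3). Agtr1b and Mas1 were below the filter too. Agtr2 was listed at 0 in 3 libraries and reached 75.2 normalized counts in E3–E12 diet replicate 1.

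Of the 22 renin-angiotensin genes listed, 19 were in the table and Mme, Ctsg and Mrgprd were not analysed here. Of these, 15 were tested, 0 passed in either direction and 0 had an unadjusted p under 0.05 in limma. The median log2 fold change was 0.44, against 0.09 over all genes tested, and without control replicate 2 it was 0.16. Ren1, which encodes renin, had 96.7, 3.22 and 27.4 normalized counts in the controls against 303, 45.8 and 29.3 in the diet litters, so its highest value of all was in the library with the most choroid plexus markers. Its log2 fold change of 1.73 (SE 1.39) was 0.52 without control replicate 2 and 2.79 without control replicate 1. The (pro)renin receptor gene Atp6ap2, which also encodes a proton pump subunit, had 510 ± 175 normalized counts in controls and 622 ± 244 in E3–E12 diet mice (SD, n = 3 each), and its log2 fold change of 0.26 was -0.06 without control replicate 2.

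**Figure D4:**
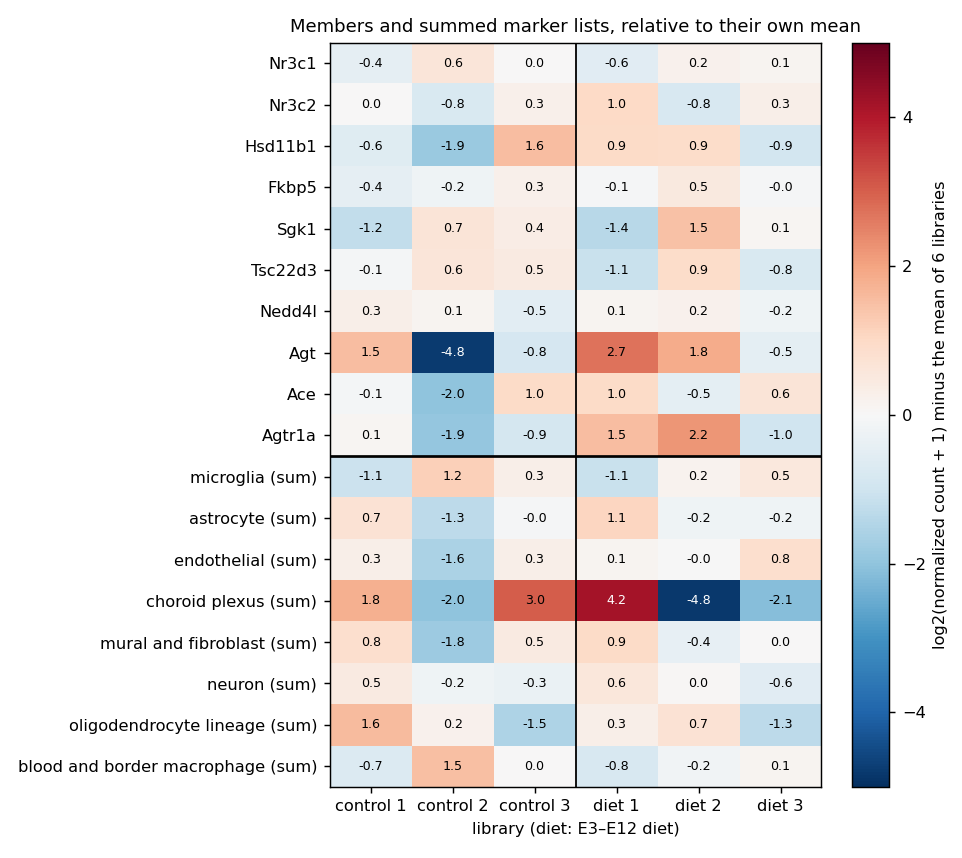
Level of the 10 genes (above the line) and of 8 summed marker lists (below it) in each library, as log2(normalized count + 1) minus the mean of the 6 libraries, with the value in each cell. Agt and Ace were left out of the astrocyte and choroid plexus sums, and columns left of the vertical line are controls. Control replicate 2 is -4.8 for Agt, -2.0 for Ace and -1.3 for the astrocyte markers but 0.6 for Nr3c1 and 1.2 for the microglial markers.

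The patterns of the genes over the 6 libraries differed in what they resembled. For each gene tested, up to 163 other genes of the pathway and marker lists were ranked by Pearson's r of log2(normalized count + 1). These values describe 6 libraries that differ in composition, and the genes are named because they ranked highest. Nr3c1 was most like Dusp1 (r = 0.986, Spearman's rho 0.943) and the microglial receptor gene Cx3cr1 (r = 0.981, rho 1.0), and r was 0.975 and 0.962 without the 2 farthest libraries. Dusp1 is also on the dissociation list. With the summed level of that list Nr3c1 had r = 0.976 (rho 0.943), and with the summed microglial markers r = 0.970 (rho 0.829). Agt was most like the astrocyte water channel gene Aqp4 (r = 0.986, rho 0.943), with r of 0.976 without the 2 farthest libraries. With the summed astrocyte markers Agt had a lower r of 0.881 (rho 0.714), and 0.394 without the 2 libraries farthest in that sum. Ace was most like Nln, an angiotensin-degrading peptidase gene (r = 0.979), and Acta2, a smooth muscle gene (r = 0.943), with r of 0.930 and 0.845 without the 2 farthest libraries. Nedd4l was most like the oligodendrocyte genes Sox10 (r = 0.966) and Cnp (r = 0.962), which were 0.817 and 0.636 without the 2 farthest libraries.

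The remaining genes had looser likenesses. Among the genes most like Sgk1 was the chaperone gene Hsp90ab1 (r = 0.936, and 0.622 without the 2 farthest libraries). Fkbp5 was most like the chaperone gene Hsp90aa1 (r = 0.863, and 0.850 without the 2 farthest) and Usp45 (r = 0.838). Tsc22d3 was most like Sult1a1 (r = 0.885) and Ddit4 (r = 0.834), both from the glucocorticoid target list. Nr3c2 was most like the choroid plexus gene Otx2 (r = 0.919, and 0.585 without the 2 farthest) and the astrocyte gene Sox9 (r = 0.917, and 0.850), and Hsd11b1 was most like Cebpd (r = 0.895) and the smooth muscle gene Tagln (r = 0.842). Both top genes were cell type markers for Nr3c2 and Nedd4l, both came from the pathway lists for Fkbp5 and Tsc22d3, and 1 of each was found for Nr3c1, Hsd11b1 and Ace.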

How the data were processed

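The authors deposited normalized counts per gene, a signal scaled between libraries, for 26789 Ensembl identifiers, of which 26507 were matched to a symbol. The submitters' processing notes name FastQC, STAR, featureCounts, DESeq2 and GRCm38 without versions, and the table's name mentions surrogate variables. Low values were whole multiples of a step in only 9.3% to 65.3% of cases per library (tolerance 0.1), so reads were not recovered and a log-scale model was used in place of count models. Differences were tested with limma 3.58.1 in R 4.3.3 on log2(normalized count + 1), with Benjamini-Hochberg adjustment over 18007 genes whose mean was at least 10, after a check on simulated data. Single values were compared by exact permutation over the 6 libraries. Levels per kilobase used GENCODE exons and coordinates of GRCm38, and promoter windows came from RefSeq. Nothing in the labels says whether strand was used in counting. Marker genes were summed per library.

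The members and lists were chosen with earlier results of these data known. The genes named are the 10 members, a fixed set of pathway genes, the genes of each list whose groups did not overlap or that had its 2 largest differences, and the 2 genes most like each member. Some genes that this rule names are not reported here. Alternatives were the pseudocount, the filter on low values, quantile normalization, equal totals, a mean-variance trend, the replicate block and leaving out each library.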

Additional observations from a re-analysis of the deposited data

How the results depend on the processing

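Under every alternative run 0 of the 10 genes were called, with a smallest adjusted p of 0.869 in limma (without control replicate 1, where the smallest unadjusted p was 0.0366). Of 124 values of single genes under the alternatives, 113 kept their direction and 11 reversed, and Fkbp5, Tsc22d3 and Agt kept their sign throughout. With quantile normalization the log2 fold change was 0.04 for Nr3c1 and -0.07 for Hsd11b1. With each library left out in turn, log2 fold changes ran from -0.38 to 0.14 for Nr3c1, -0.10 to 0.81 for Nr3c2, -0.57 to 0.86 for Sgk1, -0.16 to 1.55 for Hsd11b1, -0.16 to 0.26 for Nedd4l and -0.07 to 1.43 for Ace. The median of the glucocorticoid targets ran from -0.257 to 0.364. Genes with an unadjusted p under 0.05 numbered 327, against 156 with a mean of at least 100, 491 with quantile normalization, and 276 to 551 with a library left out (551 without control replicate 1); the cause was not tested. Scaling libraries to 1 total moved the median log2 fold change of all genes from 0.087 to 0.198 and that of the genes described here from 0.262 to 0.382.

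With the replicate number as a block 0 genes were called at a smallest adjusted p of 0.980, and 468 genes were under an unadjusted p of 0.05; it changed no call. Same-numbered libraries deviated with correlations of 0.260, 0.0348 and 0.142 across genes, and differently numbered ones with -0.251 to 0.0869. Control replicate 2 correlated best with E3–E12 diet replicate 3 (0.0869). Whether same-numbered libraries shared a batch could not be told from these values, and the main fit used no block. The count models planned were not run, because the table holds no raw counts. P-values measure the spread between 3 pooled litters per group as it stands in the deposited values. Whether surrogate variables had been removed from these values is unknown, and so is the depth behind each value.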
